A study of Mus musculus with 4 samples.

Results

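Costimulatory receptors give a T cell the signals that accompany recognition of antigen. CD28 binds CD80 and CD86 on other cells and supplies the classical second signal for T cell activation, and ICOS, its relative that appears on activated cells, binds ICOSL; both signal through phosphoinositide 3-kinase (PI3K). CD226 and CD96 belong to the nectin-binding receptors, which share the ligand PVR (CD155) with the inhibitory receptor TIGIT, and CRTAM is an activation-induced receptor of cytotoxic cells that binds CADM1. CD7 is a small immunoglobulin-family glycoprotein of T and natural killer (NK) cells, whose human ligand is SECTM1.

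The 6 genes described here, Cd7, Cd28, Icos, Crtam, Cd96 and Cd226, were taken by symbol from the 24537 genes of the deposited expression table. They were chosen by family, with their FPKM in the EV and ACSS2NLS libraries and the differences between these groups already known, so those differences are a description and carry no p-value. All 6 had a mean of at least 1 FPKM (tags scaled to exon length and to the total tags of the library) over the libraries, as did 9810 genes in all. RNA was sequenced from CD8+ cells of mouse B16-GP33 tumours on day 21 after tumour implantation. B16 is a melanoma line and GP33 an epitope of lymphocytic choriomeningitis virus. The 2 libraries labelled EV are the controls, and the 2 labelled ACSS2NLS are from cells with added ACSS2, the enzyme that makes acetyl-CoA from acetate, where NLS commonly stands for nuclear localisation signal. The tumour, the day and the cell type were the same in both groups. No group carried ACSS2 without the signal, so its amount and its place cannot be told apart; the labels give neither the promoter that drives it nor whether the libraries came from separate mice, so the spread between replicates may be technical.

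The libraries held from 46000000 to 49300000 tags, rounded to 100000, and the labels matched Acss2 itself, at 3.66 and 3.92 FPKM for EV and 80.7 and 86.3 FPKM for ACSS2NLS. The 8 CD8 T cell identity genes that were measured (Cd8a, Cd8b1, Cd3d, Cd3e, Cd3g, Cd247, Lck and Zap70) summed to 1597 to 2145 FPKM. RNA of other cells was present. Myeloid and dendritic cell markers (19 genes) summed to 67.9 and 496 FPKM in EV replicates 1 and 2 and to 164 and 798 FPKM in ACSS2NLS replicates 1 and 2, and 9 melanoma markers to 7.52, 44.9, 13.6 and 175 FPKM in the same order. Both sums were higher in replicate 2 than in replicate 1 of each group, and higher in ACSS2NLS than in EV for each replicate number. Within the myeloid list the neutrophil genes S100a8 and S100a9 and the monocyte gene Cd14 went the other way, with means of 13.8, 13.5 and 17.5 FPKM in EV and of 0.427, 0.201 and 4.07 FPKM in ACSS2NLS. The EV means came mostly from replicate 2, at 24.4, 24.1 and 29.1 FPKM, against 3.2, 2.9 and 5.9 FPKM in EV replicate 1. Of the CD4+ and regulatory T cell markers, Cd4 was at 1.11 to 2.40 FPKM and Foxp3 at 2.37 to 3.89 FPKM, and the sum of all 10, 55.6 to 194 FPKM, was mostly Ctla4 and Il2ra, which activated CD8+ cells also express. The 13 NK, innate lymphoid and gamma-delta T cell markers found in the table summed to 1309 to 1785 FPKM, mostly Nkg7, a gene of cytotoxic T cells too, while the NK receptor gene Ncr1 was at 0.711 to 1.26 FPKM. B cell markers (5 genes) summed to 1.58 to 3.15 FPKM, with Pax5 listed at 0 in 3 libraries, and 9 stromal, endothelial and red blood cell markers to 13.5 to 29.1 FPKM.

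**Figure D1:**
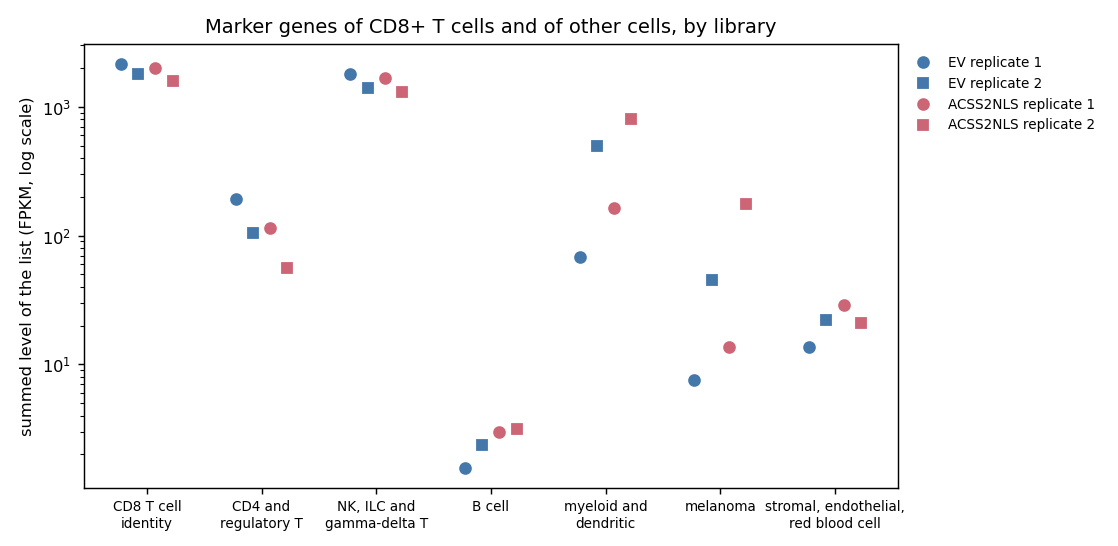
Summed level of each marker list in FPKM on a log axis, with 1 point per library (blue EV, red ACSS2NLS; circles replicate 1, squares replicate 2). The myeloid and melanoma sums span over an order of magnitude and are highest in ACSS2NLS replicate 2, at 798 and 175 FPKM, while the CD8 T cell identity sum stays between 1597 and 2145 FPKM.

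Both ACSS2NLS libraries exceeded both EV libraries in Cd7 and in Crtam, and lay below them in Cd96. Cd28, Icos and Cd226 overlapped between the groups. Thus 3 of the 6 genes had groups that did not overlap, where 37.4% of all genes tested did not overlap. In the gene-by-gene comparison over all genes (limma-trend, adjusted p under 0.05), 0 of the 6 passed, against 0.0204% of the genes tested. Since this contrast was known when the genes were chosen, nothing is read from these counts of the 6. Of all genes tested, 5.97% had an unadjusted p under 0.05 in this fit. In bulk RNA, fewer cells with a transcript and less of it per cell cannot be told apart.

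**Figure D2:**
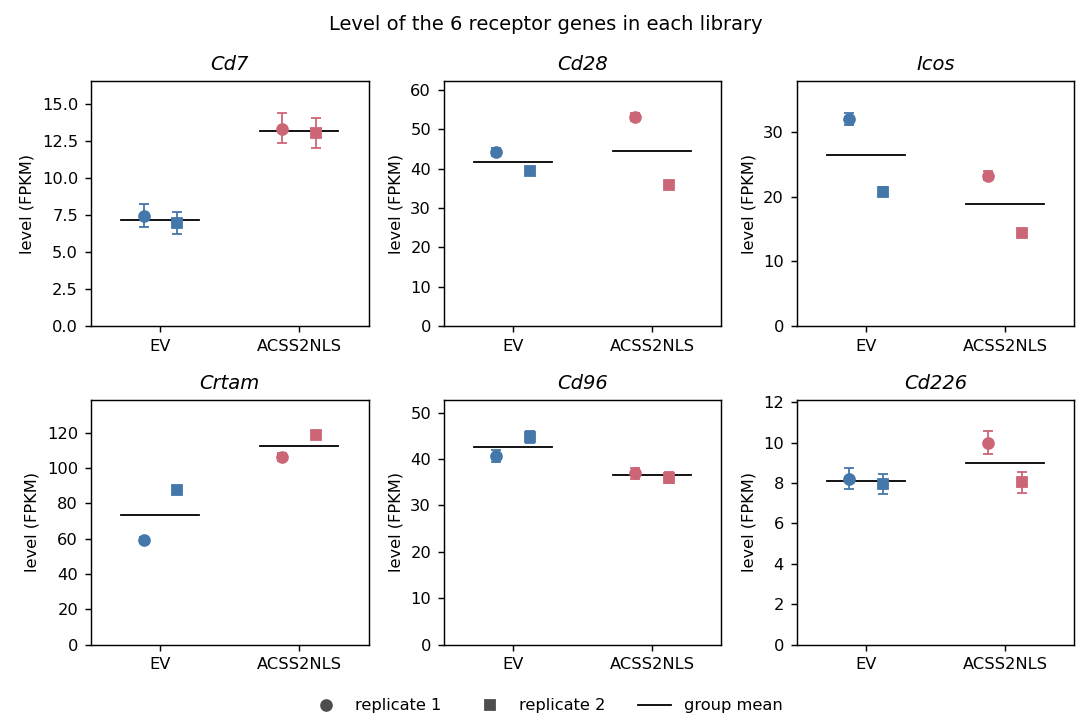
Level of each gene in FPKM in the 4 libraries; bars are 95% Poisson intervals from the tags behind each value, which cover counting error only, and black lines are group means. Cd7 is near 7 FPKM in both EV libraries and near 13 FPKM in both ACSS2NLS libraries, whereas the Icos and Cd28 points of a group lie apart by more than their bars.

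By level per length, Crtam led the set in every library, with a mean of 92.9 FPKM over the 4 libraries, above 96.9% of the genes tested. Cd28 (43.2 FPKM) and Cd96 (39.6 FPKM) came next and changed places from library to library, so their order is within their spread. Icos (22.6 FPKM) was the fourth in every library. Cd7 (10.2 FPKM) and Cd226 (8.54 FPKM) were the lowest. Cd7 stood below Cd226 in both EV libraries, at 0.904 and 0.872 of its level, and above it in both ACSS2NLS libraries, at 1.33 and 1.62 times its level. The 6 genes together summed to 192 and 207 FPKM for EV and 243 and 226 FPKM for ACSS2NLS. Crtam made up 30.9% and 42.2% of that sum in EV and 43.7% and 52.5% for ACSS2NLS, while the share of Icos was 16.7% and 10.02% for EV and 9.59% and 6.36% for ACSS2NLS. A higher Crtam lowers the shares of the other genes, and the level of Icos itself overlapped between the groups.

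Cd7 (NM_009854; mm10 chromosome 11, 121036749 to 121039478, minus strand) was at 7.43 and 6.93 FPKM for EV and at 13.3 and 13.0 FPKM for ACSS2NLS. The replicates of each group lay close together, and the lowest ACSS2NLS library had 1.75 times the level of the highest EV library. Its mean was 7.18 ± 0.355 FPKM for EV and 13.2 ± 0.233 FPKM for ACSS2NLS (SD, n = 2), a ratio of 1.83. On the log2(FPKM + 1) scale, which understates the differences of low genes, it was higher by 0.79 ± 0.12 (SE from limma, n = 2 per group), and 1.78% of the genes tested had a difference at least as large in either direction. The values rest on 353 tags in each EV library and on 672 and 649 tags in the ACSS2NLS libraries; the 95% Poisson intervals reached up to 8.25 FPKM for EV and down to 12.0 FPKM for ACSS2NLS. With any 1 library left out the difference stayed between 0.75 and 0.84. GENCODE M21 places 122 exon bases of Gm11775, on the opposite strand, over Cd7 exons, and although tags were counted in the sense direction, the sources used here do not say whether library preparation preserved strand, so tags of the pair cannot be separated with certainty.

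Cd7 lies beside the mouse relatives of the human CD7 ligand gene, with Sectm1b starting 13.9 kb and Sectm1a 27.9 kb from it. These neighbours were low: Sectm1b was listed at 0 in 3 libraries and at 0.062 FPKM in ACSS2NLS replicate 1, and Sectm1a was at 0.352 and 1.03 FPKM for EV and 0.357 and 1.06 FPKM for ACSS2NLS. The nearest tested genes on either side of Cd7 had no higher mean in ACSS2NLS. Csnk1d, a casein kinase gene 45.4 kb away, had a difference of -0.021 ± 0.11 on the log2 scale (limma-trend, adjusted p = 0.981), and Ogfod3, 138.1 kb away on the other side, had -0.44 ± 0.24 (adjusted p = 0.81). Of all other genes tested, 13 had a profile over the 4 libraries within 0.1 of that of Cd7 (root mean square distance of centred log2(FPKM + 1) values). The closest named ones were Trim59, at 11.6 and 10.2 FPKM for EV and 19.5 and 19.7 FPKM for ACSS2NLS (distance 0.032), and Cldn10, a claudin gene, at 1.25 and 1.22 FPKM and 3.18 and 2.76 FPKM (distance 0.051).

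Cd28 and Icos sit in 1 gene cluster on mm10 chromosome 1 with Ctla4, the inhibitory receptor that competes with CD28 for its ligands. Cd28 (NM_007642; 60746388 to 60773359, plus strand) ends 135.7 kb before Ctla4, which ends 62.1 kb before Icos (NM_017480; 60977914 to 61000321, plus strand). Cd28 was at 44.2 and 39.4 FPKM for EV and at 53.2 and 35.9 FPKM for ACSS2NLS, so the highest and the lowest library were both ACSS2NLS. Its difference was 0.064 ± 0.20 on the log2 scale (SE, n = 2 per group). It was -0.21 without ACSS2NLS replicate 1, 0.34 without ACSS2NLS replicate 2, -0.017 without EV replicate 2 and 0.15 without EV replicate 1, and thus had no direction that all libraries shared. In the plot of levels by library its ACSS2NLS points lie on both sides of the EV points.

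Icos was at 32.0 and 20.8 FPKM for EV and at 23.3 and 14.3 FPKM for ACSS2NLS. The groups overlapped, since ACSS2NLS replicate 1 stood above EV replicate 2, and in each group replicate 1 was the higher, 1.54-fold in EV and 1.62-fold in ACSS2NLS. The group means were 26.4 ± 7.98 and 18.8 ± 6.33 FPKM (SD, n = 2), and the log2 difference was -0.47 ± 0.29 (SE). Its size changed with 1 library left out. It was -0.17 without EV replicate 1, -0.78 without EV replicate 2, -0.81 without ACSS2NLS replicate 1 and -0.14 without ACSS2NLS replicate 2. Such fits leave the replicate numbers unequal between the groups. With a replicate block the difference was the same and its SE was 0.13, although the labels do not pair the libraries. Beside this, the myeloid and melanoma marker sums given above were lower in replicate 1 of each group; their part in the values of Icos was not tested.

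Ctla4, chosen for mention after its values were seen because it lies between Cd28 and Icos, was at 165.7 and 73.4 FPKM for EV and 89.8 and 20.4 FPKM for ACSS2NLS. The libraries took the same order as for Icos, from EV replicate 1 through ACSS2NLS replicate 1 and EV replicate 2 to ACSS2NLS replicate 2, over a wider range. Its log2 difference of -1.34 ± 0.73 did not pass (limma-trend, adjusted p = 0.811). The ratio of Cd28 to Icos was 1.38 and 1.90 in EV and 2.28 and 2.499 in ACSS2NLS. It was higher in both ACSS2NLS libraries, although each gene alone overlapped. Ratios of several other pairs of the receptor genes were also apart between the groups, and those of the remaining pairs overlapped. How often pairs of genes in general do so was not computed, so nothing is read from such ratios. The closest named profiles to Icos were those of Rasl11b (distance 0.028) and the potassium channel gene Kcnk7 (0.055), with 12 genes within 0.1. Around Cd28 the closest were Nsrp1 (0.015) and the phosphatase gene Ptpn18 (0.019), with 326 genes within 0.1.

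Crtam (NM_019465; mm10 chromosome 9, 40972798 to 41004628, minus strand) was at 59.4 and 87.6 FPKM for EV and at 106 and 118 FPKM for ACSS2NLS. Both ACSS2NLS libraries stood above both EV libraries, but the EV libraries differed 1.48-fold from each other, and the ratio of an ACSS2NLS to an EV library ranged from 1.21 to 1.99. The means were 73.5 ± 19.9 and 112 ± 8.69 FPKM (SD, n = 2), a ratio of 1.53 and a log2 difference of 0.63 ± 0.21 (SE). Of the genes tested, 3.15% had a difference at least as large in either direction. Counting error was small here, with 5249 to 11012 tags per library. Without EV replicate 1, the library with the lowest myeloid and melanoma marker sums, the difference was 0.35, and without EV replicate 2 it was 0.91. The part of other cells in it was not tested.

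On the chromosome, Crtam lies 9.0 kb from Ubash3b, a negative regulator of T cell receptor signalling, and 167.6 kb from Hspa8, the constitutive heat shock chaperone. Ubash3b had a log2 difference of -0.13 ± 0.14 (limma-trend, adjusted p = 0.882). Hspa8 was at 27.4 and 23.7 FPKM for EV and 50.6 and 33.2 FPKM for ACSS2NLS, a difference of 0.67 ± 0.22 that did not pass (adjusted p = 0.81). The profile of Crtam was most like those of Samd3 (distance 0.057), at 9.47 and 13.0 FPKM for EV and 16.1 and 17.9 FPKM for ACSS2NLS, and Rps12, a ribosomal protein gene (0.061), with 14 genes within 0.1. Reads of ribosomal protein genes can be split with their pseudogenes, so the value of Rps12 is uncertain.

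Cd96 (NM_032465; mm10 chromosome 16, 46035657 to 46120248, minus strand) was at 40.6 and 44.7 FPKM for EV and at 37.0 and 36.0 FPKM for ACSS2NLS. Of the 6 genes it alone was below the EV range in each ACSS2NLS library, by a small margin, since the nearest libraries of the groups stood at a ratio of 0.909. The means were 42.7 ± 2.86 and 36.5 ± 0.665 FPKM (SD, n = 2), with a log2 difference of -0.22 ± 0.11 (SE), and 28.8% of the genes tested had a difference at least as large in either direction. Its neighbours had differences of -0.15 ± 0.23 (Plcxd2) and -0.13 ± 0.17 (Gm4737), which did not pass (limma-trend, adjusted p = 0.916 and 0.898). As many as 964 genes had a profile within 0.1 of that of Cd96, the closest named ones being Kctd18 (0.0051) and Serpinb6a (0.014).

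Cd226 (NM_178687; mm10 chromosome 18, 89197427 to 89270327, plus strand), which encodes the activating receptor for the ligand PVR, was at 8.22 and 7.94 FPKM for EV and at 9.98 and 8.03 FPKM for ACSS2NLS. The values of 3 of the 4 libraries lay close together, and ACSS2NLS replicate 1 alone stood above them. The log2 difference of 0.13 ± 0.15 (SE, n = 2 per group) was -0.0077 without that library and 0.27 without ACSS2NLS replicate 2. Its profile was a common one, with 1333 genes within 0.1, Larp7 (0.0062) and Inpp1 (0.011) being the closest named. The neighbours Rttn (-0.11 ± 0.20) and Tmx3 (0.016 ± 0.15) did not pass (limma-trend, adjusted p = 0.934 and 0.989).

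Within the PVR-binding receptors the ratio of Cd226 to Cd96 was 0.202 and 0.178 in EV and 0.270 and 0.223 in ACSS2NLS. It was higher in both ACSS2NLS libraries, with Cd96 being the more abundant throughout. As with the ratio of Cd28 to Icos, the share of gene pairs in general was not computed, and nothing is read from it. The inhibitory member Tigit, named after its values were seen, was at 32.2 and 35.7 FPKM for EV and 33.2 and 25.3 FPKM for ACSS2NLS (log2 difference -0.22 ± 0.16; limma-trend, adjusted p = 0.835), and only ACSS2NLS replicate 2 was below the EV libraries.

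**Figure D3:**
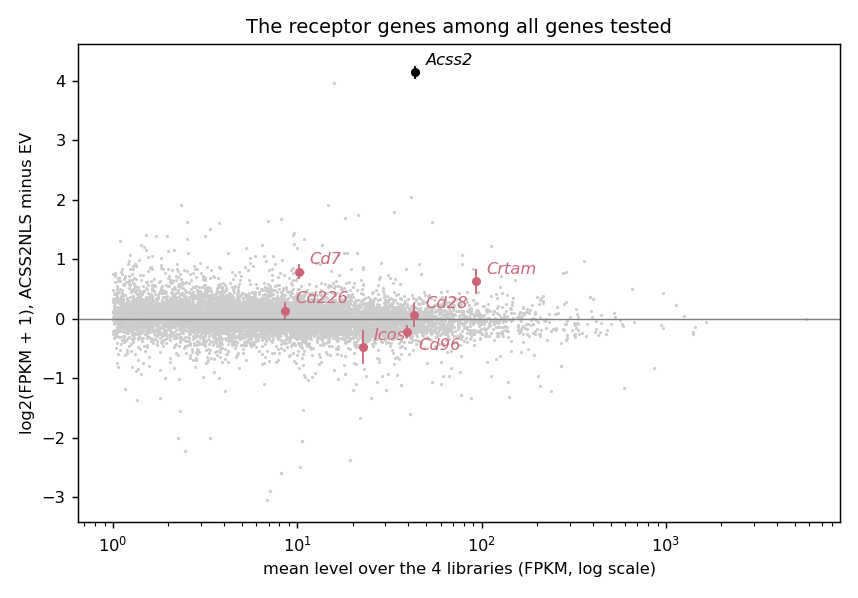
Log2 difference between groups (y, ACSS2NLS minus EV on the log2(FPKM + 1) scale) against mean level (x, FPKM, log axis) for the 9810 genes tested in grey, with the 6 receptor genes in red and Acss2 in black; bars are SE. Cd7 (0.79) and Crtam (0.63) lie near the upper edge of the cloud at their levels, and the other receptor genes lie within it.

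The level of the CD8 T cell identity genes differed between libraries. Whether this came from the share of T cell RNA or from the level of these genes per cell was not tested. The receptor genes were therefore also set against the geometric mean of the 8 identity genes, a scaling chosen after the data were seen. That mean was 223 and 187 FPKM for EV and 208 and 166 FPKM for ACSS2NLS, and the scaling moved the median of all genes by 0.12 on the log2 scale. Cd7 was then at 3.33% and 3.71% of the identity level in EV and at 6.41% and 7.82% for ACSS2NLS, and Crtam at 26.6% and 46.9% for EV and 51.1% and 71.4% for ACSS2NLS. The groups did not overlap for either gene, nor for 27.7% of all genes tested on this scale. The Cd7 log2 difference was 0.92 ± 0.25 and that of Crtam 0.76 ± 0.27 (SE) on this scale, against 0.79 ± 0.12 and 0.63 ± 0.21 without it.

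For Cd28, Cd226 and Cd96 the errors on this scale were about as large as the differences or larger. Cd28, at 19.8% and 21.1% of the identity level in EV and 25.6% and 21.6% for ACSS2NLS, and Cd226, at 3.68% and 4.26% for EV and 4.80% and 4.84% for ACSS2NLS, had both ACSS2NLS libraries above both EV libraries, as did 23.3% of all genes tested. Their log2 differences of 0.20 ± 0.21 and 0.25 ± 0.25 (SE) were about as large as their errors and include the shift of 0.12 of all genes. Cd96, at 18.2% and 23.9% for EV and 17.8% and 21.7% for ACSS2NLS, overlapped, with a difference of -0.086 ± 0.23. Icos overlapped as before (14.4% and 11.1% for EV, 11.2% and 8.64% for ACSS2NLS), with a difference of -0.35 ± 0.24. The differences of Cd96 and Icos include the shift of 0.12 too, which makes them smaller in size.

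**Figure D4:**
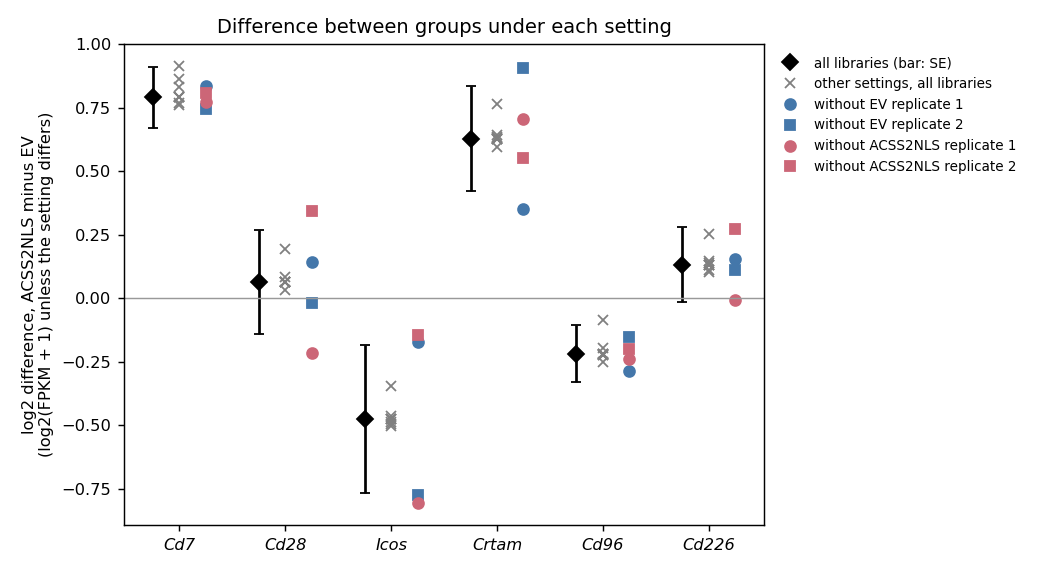
Log2 difference of each receptor gene (y, ACSS2NLS minus EV) with all libraries (diamond, bar SE), under the other settings (crosses) and with 1 library left out (coloured points). Cd7 stays between 0.75 and 0.92 throughout, Crtam and Icos keep their sign over a wide range, and Cd28 spans -0.21 to 0.34.

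Most ligand genes of these receptors were low, and 0 of the 6 that were tested passed in either direction (limma-trend; 0 at an unadjusted p under 0.05), with a median log2 difference of -0.10 against 0.015 for all genes tested; 2 were higher and 4 lower in mean. Nectin1, Nectin2 and Nectin3, the nectin cell adhesion genes, stayed at or below 0.396 FPKM in every library. Cd86 and Cd80 were at 4.18 to 8.42 FPKM, and Lgals1 was the highest by far. It encodes galectin-1, a lectin that binds CD7 among other glycoproteins, and was at 621 and 515 FPKM for EV and 656 and 468 FPKM for ACSS2NLS, with overlapping groups (-0.029 ± 0.24; limma-trend, adjusted p = 0.988); it was named after its values were seen. Cadm1, the adhesion molecule that CRTAM binds, was at 0.24 and 0.81 FPKM for EV and 0.856 and 3.34 FPKM for ACSS2NLS, a difference of 0.92 ± 0.44 (limma-trend, adjusted p = 0.81). Pvr, the shared ligand of CD226, CD96 and TIGIT, was at 0.567 and 0.923 FPKM for EV and 0.854 and 2.13 FPKM for ACSS2NLS (0.47 ± 0.30, adjusted p = 0.822). Both were highest in ACSS2NLS replicate 2, the library in which the melanoma markers summed to 175 FPKM against 7.52 to 44.9 FPKM in the others; the part of melanoma RNA in them was not tested. Cd86, a ligand of CD28, was at 7.86 and 8.42 FPKM for EV and 6.70 and 7.08 FPKM for ACSS2NLS (-0.21 ± 0.13, adjusted p = 0.822). The median of the list was -0.0025 without EV replicate 2, -0.0094 without ACSS2NLS replicate 2 and -0.21 without ACSS2NLS replicate 1.

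Inhibitory receptors that oppose costimulation were lower in mean in 6 of 9 and higher in 3, with a median log2 difference of -0.18, and 0 passed in either direction (limma-trend; 1 at an unadjusted p under 0.05). That gene was Btla, an inhibitory receptor that binds a TNF receptor family member, at 1.82 and 2.63 FPKM for EV and 4.11 and 4.10 FPKM for ACSS2NLS (0.68 ± 0.18, adjusted p = 0.81). Cd160, another receptor for that ligand, was also higher in both ACSS2NLS libraries, at 42.9 and 40.9 FPKM against 51.0 and 48.9 FPKM (0.25 ± 0.11, adjusted p = 0.81). Pdcd1, which encodes PD-1, a receptor whose signalling acts on CD28, had a difference of -0.30 ± 0.13 (adjusted p = 0.81).

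Among 17 other immunoglobulin-family surface proteins of T cells, 9 were higher and 8 lower in mean, with a median log2 difference of 0.088, and 0 passed (limma-trend; 5 at an unadjusted p under 0.05). Cd200, a surface glycoprotein that engages an inhibitory receptor on myeloid cells, was at 3.40 and 4.04 FPKM for EV and 6.93 and 8.49 FPKM for ACSS2NLS (0.88 ± 0.16, adjusted p = 0.75), about as large a difference as that of Cd7. Slamf6, a self-binding receptor of the SLAM family, had 1.10 ± 0.20 (adjusted p = 0.75). Amica1, which encodes the costimulatory adhesion protein JAML, was at 37.0 and 40.1 FPKM for EV and 25.3 and 27.5 FPKM for ACSS2NLS (-0.53 ± 0.12, adjusted p = 0.775). Without EV replicate 2 or without ACSS2NLS replicate 1 the median of the list was -0.051 and -0.053. Cd3d, Cd3e, Cd3g, Cd8a and Cd8b1 of this list are also among the CD8 T cell identity genes.

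Genes listed for the signalling of these receptors were lower in mean in 24 of 29 and higher in 5. Their median log2 difference was -0.18, against 0.015 for all genes tested. The list is mixed. It also holds Inpp5d (-0.25) and Ptpn6 (-0.21), phosphatase genes that oppose such signals, and the adhesion genes Itgal (-0.26) and Itgb2 (-0.25). Its counts and median are therefore not those of activating genes alone. In 16 of the 29 both ACSS2NLS libraries were below both EV libraries, and in 0 both were above, where 18.1% and 19.3% of all genes tested were so. Inpp5d, Ptpn6, Itgal and Itgb2 were among the 16. The list was chosen with earlier results of these data known, so nothing is read from these counts. None of the 29 passed (limma-trend; 2 at an unadjusted p under 0.05, both lower). Pik3r1, which encodes the PI3K regulatory subunit that docks on CD28 and ICOS, was at 9.90 and 10.8 FPKM for EV and 7.43 and 6.89 FPKM for ACSS2NLS (-0.47 ± 0.13, adjusted p = 0.81). Malt1, a protease of the pathway to NF-kappaB, was at 13.4 and 12.9 FPKM for EV and 9.61 and 11.0 FPKM for ACSS2NLS (-0.33 ± 0.13, adjusted p = 0.81). Vav1, an exchange factor downstream of CD28, was at 35.1 and 32.5 FPKM for EV and 27.8 and 29.3 FPKM for ACSS2NLS (-0.23 ± 0.11, adjusted p = 0.81). The differences of single genes were small, and the summed level of the CD8 T cell identity genes was also lower in mean in ACSS2NLS. Scaled to those genes, which include Lck of the signalling list, 19 of the 29 were lower. That scaling moved the median of all genes up by 0.12, so this count cannot be set against the 24 directly. The median of the 29 was then -0.054, where that of all genes tested was 0.13.

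Genes that costimulation is known to induce showed no shared direction, with 4 higher and 3 lower in mean of 7 tested, a median log2 difference of 0.034, and 0 that passed (limma-trend; 0 at an unadjusted p under 0.05). Tnf, the cytokine gene, was at 9.89 and 7.42 FPKM for EV and 7.87 and 16.8 FPKM for ACSS2NLS (0.39 ± 0.34, adjusted p = 0.853). The growth regulator Myc had 0.23 ± 0.22 (adjusted p = 0.864), and Ifng, which encodes interferon gamma, had -0.37 ± 0.27 (adjusted p = 0.835). The groups overlapped for all 7. Without ACSS2NLS replicate 2 the median was -0.31.

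**Figure D5:**
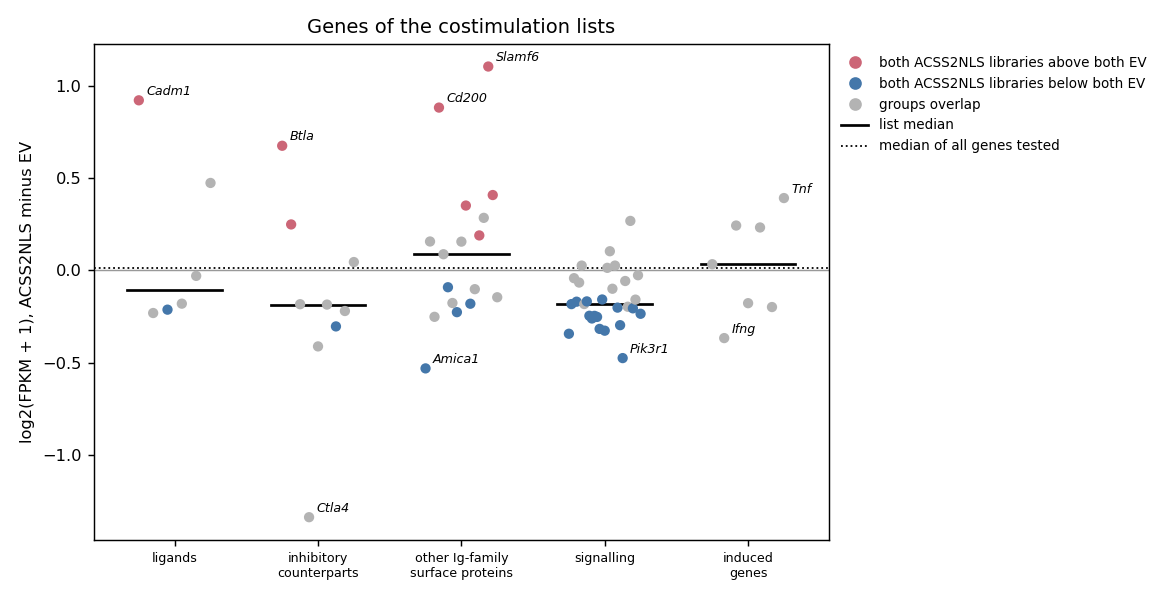
Log2 difference (y, ACSS2NLS minus EV on the log2(FPKM + 1) scale) of each tested gene of the 5 costimulation lists, red or blue where both ACSS2NLS libraries lie above or below both EV libraries; the bar is the list median and the dotted line the median of all genes tested. The signalling genes gather below the line around -0.18, and the list of other surface proteins spreads on both sides. The lists were chosen with earlier results of these data known.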

How the data were processed

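The submitters' processing notes list the tools STAR 2.5.3a and HOMER and the build mm10. HOMER counted tags, per the file headers, on sense exons of 1 RefSeq transcript per gene and scaled them to FPKM, the deposited unit; the header names 8 tag directories, and the table holds 4 library columns, all used. Columns named Acss2WT and Acss2OE were read as EV and ACSS2NLS. A count test was left out, since FPKM are not counts. Values times length fell on whole steps (100% within 0.1 of a step), which gave the tags behind each value.

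From the deposited FPKM, log2(FPKM + 1) was fitted with limma-trend (limma 3.58.1, R 4.3.3), two-sided, over the 9810 genes whose mean reached 1 FPKM, with Benjamini-Hochberg adjustment over all of them and a threshold of 0.05. An exact permutation test of 2 against 2 cannot go below 0.333 and was not used. Replicates differed by more than counting noise (chi-square per degree of freedom 40.1 in EV, 60.7 in ACSS2NLS).

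The 6 genes and the gene lists were chosen with earlier results of these data known. Named genes are the 6, Acss2, the 3 of each costimulation list with the smallest unadjusted p, and the 2 closest profiles to each of the 6 (leaving out unnamed transcripts); the genomic neighbours and any other gene were chosen after the data were seen. Alternatives covered the pseudocount, the filter, scaling, a replicate block and each library left out. T cell receptor constant region genes were not analysed here.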

Additional observations from a re-analysis of the deposited data

How the results depend on the processing

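The number of libraries, 2 per group, limits every statement here. The 6 receptor genes rest on 353 to 11012 tags per library, while values under 1 FPKM, such as those of Sectm1b and the nectins, rest on fewer. Over all genes, 2 were called higher and 0 lower; with no filter on low values 38 and 4 were called and with the replicate block 229 and 172, and with 1 library left out 2 higher (each time) and 0 to 9 lower, the 9 without EV replicate 1. The cause was not tested. The replicate numbers are not stated to pair the samples, although same-numbered libraries deviated together (r = 0.58 across genes, which are not independent replicates); under the block 1 of 6 ligands (Cadm1, higher), 2 of 9 inhibitory receptors (Btla higher, Ctla4 lower), 3 of 17 other surface proteins (Cd200 and Slamf6 higher, Amica1 lower) and 0 of 29 signalling genes passed. Genes of the marker lists passed too: 5 of 6 melanoma (higher), 10 of 15 myeloid (7 higher, 3 lower) and 3 of 6 stromal, endothelial and red blood cell markers (higher). In the NK, innate lymphoid and gamma-delta T cell list 3 of 8 passed, Eomes, Fcer1g and Tyrobp, all higher. Fcer1g and Tyrobp took the same order of libraries as the myeloid sum. The other way, 4 of the 8 were lower in mean, among them the NK receptor genes Klra7 (-0.60) and Klrb1c (-0.57). With a pseudocount of 0.1 the log2 difference of Cd7 was 0.87, and scaled to the CD8 T cell identity genes it was 0.92, that of Cd96 -0.086, and the medians of the signalling and ligand lists -0.054 and 0.0073. These scaled values include the shift of 0.12 that the scaling gave the median of all genes. The ligand median was 0.010 with no filter on low values. With the block the differences of the 6 receptor genes did not change, and their SE were 0.12 to 0.14, against 0.11 to 0.29 without it. Leaving out 1 library gave 0.75 to 0.84 for Cd7, 0.35 to 0.91 for Crtam, -0.81 to -0.14 for Icos, -0.21 to 0.34 for Cd28, -0.29 to -0.15 for Cd96 and -0.0077 to 0.27 for Cd226. The list medians then ranged from -0.21 to -0.0025 for ligands, -0.28 to -0.081 for inhibitory receptors, -0.053 to 0.15 for other surface proteins, -0.21 to -0.12 for signalling and -0.31 to 0.12 for induced genes.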
